A study of Homo sapiens with 8 samples.

Results

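The 2-oxoacid dehydrogenase subunits described here are 7 of the 20720 genes with spliced reads in RNA-seq of K562, a line from human erythroleukaemia, with SF3B1 as K700E or as wild type (WT). They are DLST, OGDH, DLD, DLAT, PDHA1, PDHB and PDHX, chosen by name and complex membership, together with an alternative 3′ splice site (acceptor) in intron 5 of DLST. Their reads fell on 379 of the 860791 splice junctions listed in the series, between 22 junctions in PDHB and 87 in OGDH. SF3B1, a subunit of the U2 snRNP, takes part in selecting the branch point ahead of an acceptor, and K700E is a recurrent substitution in myelodysplastic syndromes. The 4 groups were K700E cells at day 4, WT cells at day 4, cells labelled K700E at day 8 and cells labelled WT at day 8, with 2 libraries each. All 8 libraries share the K562 background, and the labels give doxycycline at 1 ug/ml for all of them as the inducer of the modified allele. The labels do not say whether the replicates were separate cultures or clones, so p-values measure only the spread between these libraries.

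Mitochondrial 2-oxoacid dehydrogenase complexes join a thiamine-dependent decarboxylase, an acyltransferase core that carries lipoic acid, and the flavoprotein dihydrolipoamide dehydrogenase. The pyruvate dehydrogenase complex feeds acetyl-CoA into the citrate cycle, and the 2-oxoglutarate dehydrogenase complex makes succinyl-CoA within the cycle. DLST is the succinyltransferase core of the 2-oxoglutarate complex and OGDH its decarboxylase. In the pyruvate complex PDHA1 and PDHB form the decarboxylase, DLAT is the acetyltransferase core and PDHX binds the dehydrogenase to that core. DLD is the dehydrogenase that both complexes share.

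Each library held between 49338071 and 77750812 uniquely mapped junction reads. Since spliced reads over introns cannot show the K700E base, the labels were set beside the near-upstream acceptors of 13 other genes known to respond to SF3B1 hotspot substitutions. Their median use was 39.5% and 38.0% in the K700E libraries and 1.67% and 3.07% in the WT libraries at day 4. The day 8 libraries labelled K700E gave 3.39% and 40.2%, and those labelled WT gave 0.946% and 42.9%, so at day 8 one library of each label went against it. No library was moved, each day was fitted alone, and day 8 values are given by library and as labelled. SF3B1 itself had 720 and 704 CPM in the K700E libraries and 755 and 656 CPM in the WT libraries at day 4, where CPM is the count per 1000000 reads of the TMM-scaled library. Junctions with a single read made up 1.36% and 2.76% of those listed in the libraries labelled WT at day 8 and 16.3% to 24.9% in the other 6, so an absence of rare junctions there is not comparable. The labels call the cells epithelial. Of 7 epithelial markers, KRT8, KRT18, KRT19 and EPCAM were read in every library, while CDH1 had 0 to 3 reads, CLDN4 0 to 2 and ELF3 1 to 850. Erythroid markers summed to 656 and 291 CPM in K700E and 642 and 596 CPM in WT at day 4, and to 234 to 397 CPM at day 8. In each library 10 or 11 of the 11 had 3 reads or more.

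The DLST gene (ENSG00000119689.14) lies on the plus strand of chromosome 14, 74881891 to 74903745 on hg38, and its principal transcript has 15 exons. Intron 5 spans 74889350 to 74889896. The alternative junction uses the same donor and ends at 74889877, 19 nt upstream, within intron 5 and between coding exons. It is annotated in GENCODE release 29, in a transcript other than the principal one. The sequences below are shown because the 19 added bases decide the reading frame. They are the GENCODE release 29 exon that follows the cryptic acceptor (chr14:74889878-74889952, plus strand), with the first in-frame stop in capitals, the 19 nt stretch that it adds (chr14:74889878-74889896, plus strand), with its final AG in capitals, and the reference exon 6 (chr14:74889897-74889952, plus strand).
Cryptic exon 6: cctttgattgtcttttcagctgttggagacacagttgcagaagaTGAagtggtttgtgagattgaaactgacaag
Added stretch: cctttgattgtcttttcAG
Reference exon 6: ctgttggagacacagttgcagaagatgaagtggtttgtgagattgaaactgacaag
The 19 nt are not a multiple of 3. Read in the frame of the principal transcript, which has 453 codons before its stop, the cryptic form reaches TGA at 74889922 to 74889924 after 106 codons. That stop lies 28 nt before the end of its exon with 9 exon junctions downstream. An annotated transcript of the class nonsense-mediated decay, ENST00000555988.1, has its stop at the same position. Transcript stability and protein were not measured.

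In K700E cells at day 4 most reads that left DLST exon 5 joined the cryptic acceptor, and the canonical junction fell. The cryptic junction had 287 and 212 unique reads in the K700E libraries, against 7 and 9 in the WT libraries. The canonical junction had 106 and 132 reads in K700E and 405 and 464 in WT. Neither pair of values overlapped between the genotypes. The share of the donor's reads that joined the cryptic acceptor was 71.0% (95% Wilson interval 66.4% to 75.2%) and 60.2% (55.0% to 65.2%) in the K700E libraries. It was 1.66% (0.808% to 3.39%) and 1.84% (0.973% to 3.47%) in the WT libraries. These intervals cover counting error only, and the 2 K700E intervals did not meet. The mean share was 65.6% ± 7.65 in K700E and 1.75% ± 0.128 in WT (SD, n = 2 each), a change of 63.9 points (adjusted p = 3.38e-06, edgeR diffSpliceDGE over 69838 junctions). In a model of all 8 libraries the change was not called (adjusted p = 1.00).

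**Figure D1:**
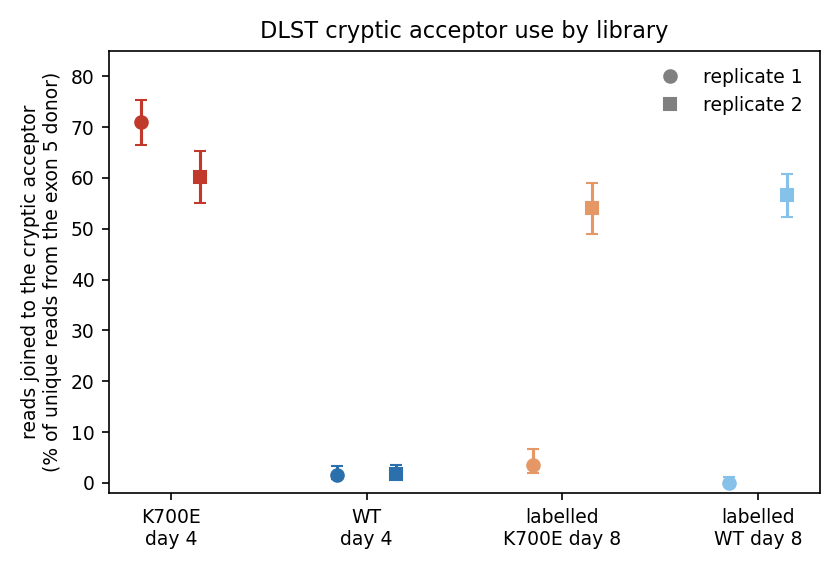
Share of unique reads from the DLST exon 5 donor that joined the cryptic acceptor, in percent, for each library (symbols: replicates; bars: 95% Wilson intervals, counting error only). The K700E libraries of day 4 sit at 71.0% and 60.2% and the WT libraries at 1.66% and 1.84%, while each label of day 8 holds 1 library above 50% and 1 below 5%.

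Absolute levels moved in both junctions and not by the same amount. The cryptic junction had 3.73 ± 0.324 CPM in K700E and 0.139 ± 0.00944 CPM in WT (SD, n = 2 each), a log2 change of 4.74 (SE 0.34, adjusted p = 0.00172, edgeR quasi-likelihood test over 198914 junctions). The canonical junction had 1.82 ± 0.508 CPM in K700E and 7.58 ± 0.102 CPM in WT, a log2 change of -2.04 (SE 0.24, adjusted p = 0.0110). In that fit 1.16% of junctions passed the test, and among the 140 tested junctions of the 7 genes 3 did, these 2 and 1 junction of OGDH. Leaving out WT replicate 1 or WT replicate 2 ended both DLST calls (adjusted p = 0.495 and 0.524, the same for both junctions), and so did the model of all 8 libraries (0.793 for the cryptic and 0.248 for the canonical junction). Without those WT replicates 0 of 186826 and 0 of 185262 junctions passed in all, with 18699 and 17650 at an unadjusted p under 0.05. The log2 change was then 4.68 and 4.81 for the cryptic junction and -2.03 and -2.06 for the canonical one.

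All reads from the exon 5 donor came to 5.70 ± 0.171 CPM in K700E and 7.93 ± 0.0416 CPM in WT. The other 13 DLST introns averaged 5.44 ± 0.179 CPM in K700E and 6.003 ± 0.132 CPM in WT. Set against those introns, the donor's reads gave ratios of 1.00 and 1.09 in the K700E libraries and 1.35 and 1.30 in the WT libraries. The canonical junction alone gave 0.263 and 0.411 in K700E and 1.29 and 1.23 in WT. The CPM gained at the cryptic junction was smaller than the CPM lost at the canonical one, a difference that was not tested. Reads that skipped exon 6 were 10 and 6 in K700E and 8 and 9 in WT, 2.09% and 1.87% of the donor's reads on average (adjusted p = 1.00).

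**Figure D2:**
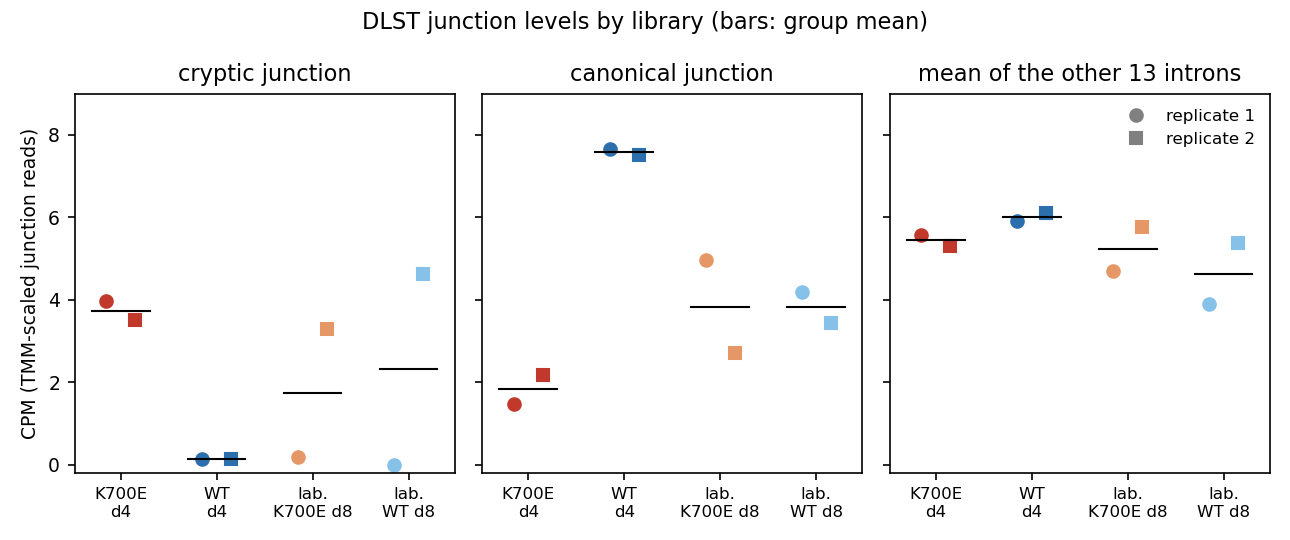
CPM of the DLST cryptic junction, the canonical junction and the mean of the other 13 introns in each library (symbols: replicates; horizontal bars: group means; lab.: as labelled). At day 4 the cryptic junction averaged 3.73 CPM in K700E and 0.139 CPM in WT and the canonical junction 1.82 and 7.58 CPM, while the other introns averaged 5.44 and 6.003 CPM.

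Each DLST junction was also tested against the other junctions of the gene, an alternative chosen after the values were seen. At day 4 this fit called 0.0861% of 150968 junctions, and in the 7 genes it called the DLST cryptic junction (log2 4.82 relative to the gene, adjusted p = 4.94e-12) and the canonical one (log2 -1.92, adjusted p = 8.76e-07). Both calls held without each of the 4 libraries in turn. The introns ahead of the cryptic acceptor had lower levels in both K700E libraries than in both WT libraries. Intron 2 had 1.20 and 1.07 CPM in K700E and 2.21 and 2.48 CPM in WT, and intron 3 had 2.01 and 2.18 CPM in K700E and 3.85 and 3.77 CPM in WT. Neither passed the test within the gene (log2 -0.88 and -0.70, adjusted p = 1.00 for both). The log2 ratio of the 4 introns before intron 5 to those after it was -1.88 and -1.66 in K700E and -1.11 and -1.17 in WT. The day 8 libraries gave -0.52 and -1.07 where labelled K700E and -0.56 and -0.66 where labelled WT. Replicate 2 had the lower ratio within each day 8 label. Behind the cryptic acceptor, introns 6, 11, 13 and 14 were lower in both K700E libraries than in both WT libraries. Intron 10 was higher, and the genotypes overlapped in the rest. Intron 6 averaged 6.59 CPM in K700E and 7.08 CPM in WT. Intron 9, which overlapped, averaged 8.52 CPM in K700E and 7.99 CPM in WT.

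**Figure D3:**
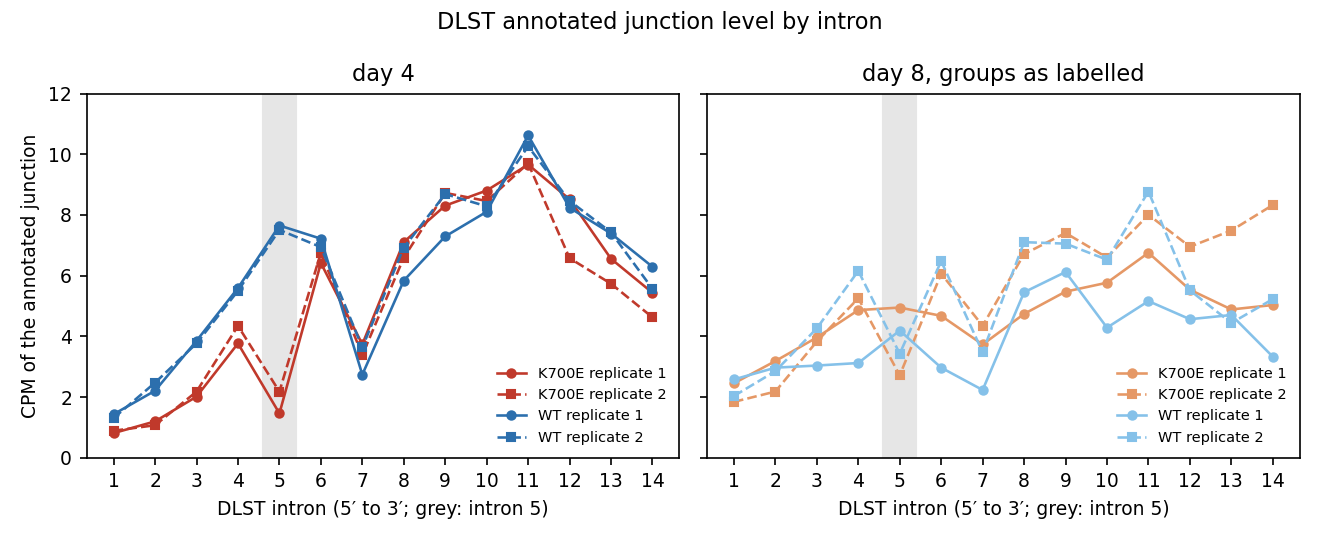
CPM of the annotated junction of each DLST intron from 5′ to 3′, one line per library, at day 4 (left) and day 8 as labelled (right); intron 5 is shaded. At day 4 the K700E lines drop to 1.46 and 2.18 CPM at intron 5, where the WT lines reach 7.65 and 7.51 CPM, and the lines run close together from intron 6 on.

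Junctions near the start of DLST that skip exon 2, exon 3 or both had few reads, which varied between replicates. The junction from exon 2 to exon 4 had 12 and 33 reads in K700E and 8 and 0 reads in WT, on average 22.8% of its donor's reads in K700E and 3.20% in WT (adjusted p = 0.263). The junction from exon 1 to exon 4 took 38.8% and 23.9% in K700E and 21.0% and 12.6% in WT (adjusted p = 0.913). The junction from exon 1 to exon 3 had 26 and 8 reads in K700E and 7 and 9 in WT. None of these passed the test at day 4. At day 8 the junction from exon 1 to exon 4 took 6.67% and 20.2% in the libraries labelled K700E and 0% and 37.7% in those labelled WT. Replicate 2 had the higher share within each day 8 label for each of these junctions.

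At day 8 the DLST cryptic acceptor separated the libraries in the same way as the other target acceptors, across the labels, with replicate 2 high and replicate 1 low in both. It had 9 and 203 reads in the libraries labelled K700E and 0 and 288 reads in those labelled WT. The share was 3.57% (95% Wilson interval 1.89% to 6.65%) and 54.0% (48.9% to 59.0%) in the libraries labelled K700E. It was 0% and 56.6% (52.2% to 60.8%) in those labelled WT, where 0 of 302 reads has a Wilson upper bound of 1.26% (0.993% if counted as 3 reads). That bound covers counting error only. In the library with 0 reads 1.36% of listed junctions had a single read, so its absence of rare junctions is not comparable. As labelled, the mean share was 28.8% ± 35.7 for K700E and 28.3% ± 40.0 for WT (SD, n = 2 each), a difference of 0.49 points (adjusted p = 1.00, edgeR). Without the library labelled WT replicate 1 the difference was -27.8 points, and without that labelled K700E replicate 2 it was -24.7 points. Canonical levels ran the other way, with 4.95 and 2.72 CPM in the libraries labelled K700E and 4.19 and 3.43 CPM in those labelled WT. The difference between the day 4 and day 8 effects on the cryptic acceptor did not pass the test (adjusted p = 0.723, unadjusted p = 0.0177, edgeR, 8 libraries). In that fit 0 of 94959 junctions passed, with 5627 at an unadjusted p under 0.05, so the outcome is not particular to DLST. At day 8 0 of 42 tested acceptors of the 7 genes were called, with 0 at an unadjusted p under 0.05 and 0 by limma diffSplice, beside 0 of 63314 acceptors in all by either tool, 1765 of them at an unadjusted p under 0.05 with edgeR.

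Across the 7 genes 59 acceptors were tested at day 4, and 2 were called, both at the DLST exon 5 donor, 1 higher and 1 lower in K700E. Over all junctions tested 0.467% were called, 0.358% higher and 0.109% lower. The loss of the canonical acceptor share, -63.8 points (adjusted p = 0.00227), was not called without WT replicate 1 (adjusted p = 0.198) or WT replicate 2 (adjusted p = 0.285). Of the 47 acceptors in the other 6 genes, 45 changed by less than 5 points. In PDHX 2 junctions of 1 donor exceeded it, neither with an adjusted p under 0.05.

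PDHX (ENSG00000110435.11, chromosome 11, 34915829 to 35020591 on hg38, plus strand) held the acceptor most like that of DLST among the other members. It is an unannotated acceptor at 34947492, 13 nt upstream of the annotated end of intron 2 at 34947505. It had 23 and 24 reads in the K700E libraries and 1 and 0 reads in the WT libraries at day 4. At day 8 it had 2 and 15 reads in the libraries labelled K700E and 0 and 22 in those labelled WT, so at day 8 replicate 2 was again the higher library of each label. Its mean share at day 4 was 4.45% ± 0.796 in K700E and 0.0988% ± 0.140 in WT (SD, n = 2 each). The change of 4.35 points had an adjusted p of 0.0119 with edgeR diffSpliceDGE but lay under the 5 points required for a call. With limma diffSplice the adjusted p was 0.203, without WT replicate 1 it was 0.155, without WT replicate 2 it was 0.428, and in the model of all 8 libraries it was 1.00. Without either K700E replicate it had too few reads to be tested. The annotated acceptor of that intron still took 94.5% of reads in K700E and 99.0% in WT.

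The largest change of use in PDHX lay at the donor of intron 8. Its annotated acceptor at 34984569 took 90.8% and 94.3% of reads in K700E and 84.8% and 84.9% in WT, a change of 7.72 points (adjusted p = 1.00). The reads that did not use it mostly joined an unannotated acceptor at 34980372, which had 42 and 19 reads in K700E and 48 and 77 in WT (adjusted p = 0.677). The largest change of use in each of the other 5 genes was at most 2.08 points, and none of these passed the test. OGDH (ENSG00000105953.14, chromosome 7, 44606572 to 44709066, plus strand) has alternative acceptors at 44647443 and 44647656 after 1 donor, and the first took 23.1% and 24.4% in K700E and 21.4% and 21.9% in WT (2.08 points, adjusted p = 1.00). At day 8 the same acceptor took 31.2% and 40.8% in the libraries labelled K700E and 10.2% and 50.6% in those labelled WT, a wider spread than between any 2 libraries of day 4. In DLD the largest change was 1.61 points, in DLAT 1.83, in PDHA1 1.96 and in PDHB -1.003. In DLAT an acceptor at 112030225 had 0 reads in both K700E libraries and 5 and 13 in WT, a change of -1.09 points (adjusted p = 0.0341), under the 5 points required.

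Acceptors lying 1 to 50 nt upstream of the acceptor used most from the same donor were listed 24 times in the 7 genes, 8 of them with at least 10 reads in all. In DLAT one, 18 nt upstream in intron 10, had 13 and 6 reads in K700E and 0 and 3 in WT (adjusted p = 0.978), and none at day 8. In PDHA1 one, 21 nt upstream in intron 3, had 27 and 20 reads in K700E and 1 and 22 in WT (adjusted p = 1.00).

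At the gene level, read as the sum of unique reads over a gene's annotated introns, 0 of the 7 genes passed the test at day 4 with edgeR, where 0.529% of 13991 genes did. At an unadjusted p under 0.05 there were 4, of which 3 were higher in K700E and 1 lower, beside 21.3% of all genes, 10.8% higher and 10.5% lower. The DESeq2 test called 3 (OGDH, DLAT and DLD) beside 11.7% of all genes. The groups did not overlap in any of the 7, 4 of them higher and 3 lower in K700E, and likewise in 54.6% of all genes tested, 26.4% higher and 28.2% lower. In bulk RNA, fewer cells that express a gene and less RNA per cell cannot be told apart. The sum of 6 megakaryocyte markers moved with the genotype at day 4, with 126 and 123 CPM in K700E and 12.6 and 23.9 CPM in WT. Of these markers, 3 and 5 had 3 reads or more in K700E, and 3 and 4 in WT. At 0 reads were 3 and 0 in K700E and 2 and 2 in WT. The sum does not show how many of the markers moved. The sum of 7 epithelial markers moved the other way, with 688 and 487 CPM in K700E and 868 and 986 CPM in WT, and 1 or 2 of them at 0 reads. EPCAM, KRT8, KRT18 and ELF3 were lower in both K700E libraries than in both WT libraries. ELF3 had 36 and 1 reads in K700E and 850 and 373 in WT. KRT19 did not follow, with 124 and 32.9 CPM in K700E and 121 and 71.1 CPM in WT. CDH1 had 3 and 0 reads in K700E and 0 in both WT libraries, and CLDN4 had 0 in each of these libraries. The part of either list in the gene-level differences was not tested.

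DLST had 79.4 and 76.0 CPM in the K700E libraries and 85.7 and 87.6 CPM in the WT libraries at day 4. The log2 change was -0.14 (SE 0.12, adjusted p = 0.545), and it lay between -0.17 and -0.12 with each library left out. The gene sum includes the cryptic junction, which is annotated. OGDH, the partner of DLST, had 212 and 192 CPM in K700E and 132 and 123 CPM in WT. Its log2 change was 0.68 (SE 0.13, adjusted p = 0.0888, edgeR). It passed with DESeq2 (adjusted p = 0.000349), without a filter on low counts (0.00755), without K700E replicate 1 (0.0228) and without K700E replicate 2 (0.0117). Those last 3 settings called 7.95%, 17.6% and 8.55% of all genes. OGDH did not pass without WT replicate 1 or WT replicate 2 (adjusted p = 0.501 for both) or in the model of all 8 libraries (0.433), settings in which 0 genes passed in all (edgeR), with 1442, 1422 and 1449 at an unadjusted p under 0.05. One OGDH junction, 44694577 to 44696024, passed on its own (log2 0.98, SE 0.18, adjusted p = 0.0414). That call was also lost without WT replicate 1 (0.495), without WT replicate 2 (0.524) and in the model of all 8 libraries (0.533), at log2 changes of 1.08, 0.88 and 0.96.

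DLD (ENSG00000091140.13, chromosome 7, 107890970 to 107931730, plus strand) had 303 and 273 CPM in K700E and 381 and 403 CPM in WT, a log2 change of -0.43 (SE 0.12, adjusted p = 0.145). It passed with DESeq2 (adjusted p = 0.0397) and without K700E replicate 1 (0.0491). DLAT (ENSG00000150768.15, chromosome 11, 112024814 to 112064390, plus strand) had 275 and 301 CPM in K700E and 192 and 202 CPM in WT, a log2 change of 0.56 (SE 0.12, adjusted p = 0.108). It passed with DESeq2 (adjusted p = 0.00362), without a filter (0.0252) and without K700E replicate 1 (0.0155). PDHA1 (ENSG00000131828.13, chromosome X, 19343893 to 19361705, plus strand) had 300.5 and 349 CPM in K700E and 220.4 and 279 CPM in WT (log2 0.40, SE 0.17, adjusted p = 0.249). PDHB (ENSG00000168291.12, chromosome 3, 58427630 to 58433857, minus strand) had 63.3 and 66.1 CPM in K700E and 49.03 and 54.4 CPM in WT (log2 0.34, SE 0.13, adjusted p = 0.228). PDHX had 73.0 and 74.3 CPM in K700E and 84.2 and 94.7 CPM in WT (log2 -0.26, SE 0.13, adjusted p = 0.305). Levels were also averaged over the introns of each principal transcript, which lets genes be compared. For DLST this mean leaves out the cryptic junction, which the gene sum includes. In WT at day 4 the mean was highest for DLD (30.1 CPM per intron) and PDHA1 (24.9), then DLAT (15.1), PDHX (8.90), DLST (6.12), PDHB (5.72) and OGDH (5.65). In K700E the order was PDHA1 (32.3), DLAT and DLD (22.1 each), OGDH (8.94), PDHX (7.34), PDHB (7.16) and DLST (5.18). PDHB and OGDH in WT differed by less than their SDs allow to order (SD 0.41 for PDHB and 0.30 for OGDH). Both WT libraries of DLST (6.03 and 6.20, SD 0.12) lay above those of PDHB (5.42 and 6.01) and OGDH (5.87 and 5.44). This order was not tested. In K700E DLST was the lowest (5.18 ± 0.13, SD, n = 2).

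**Figure D4:**
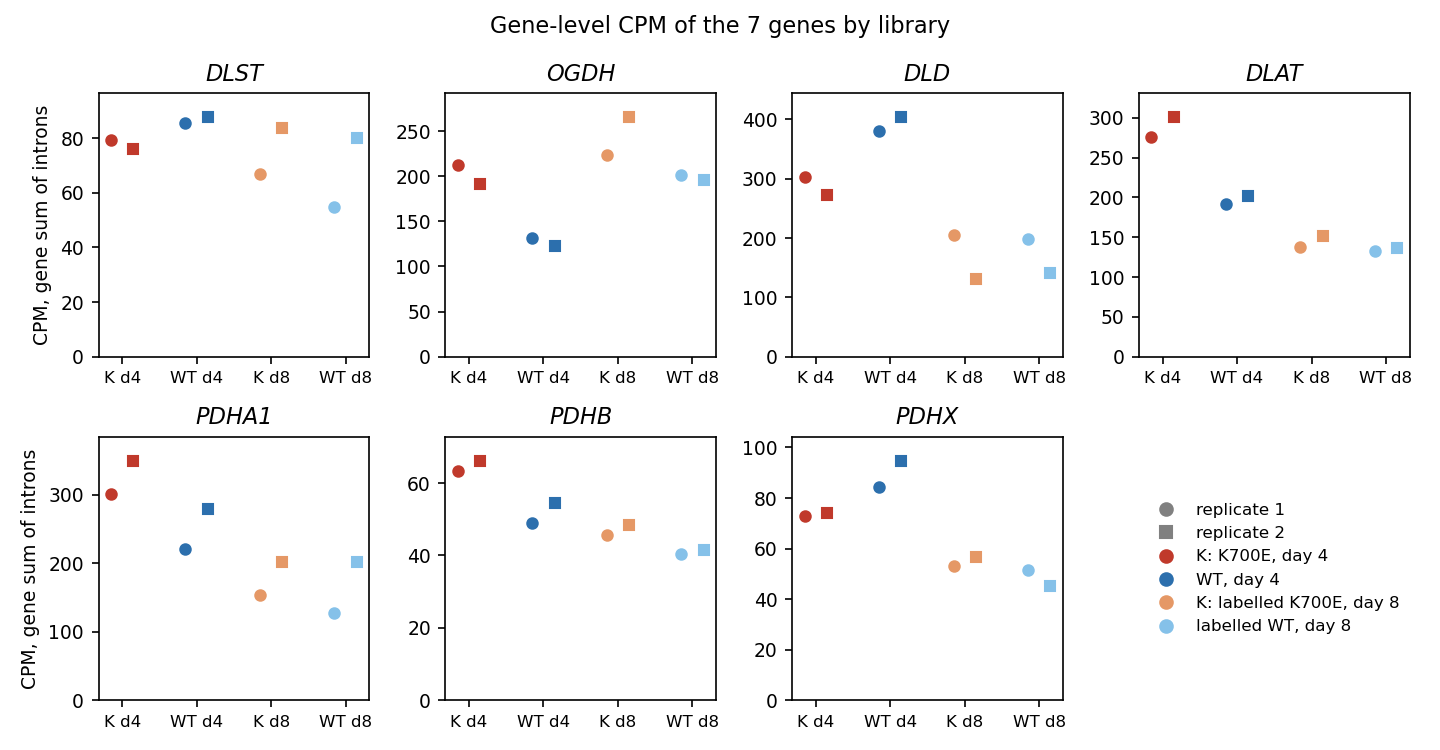
Gene-level CPM of the 7 genes in each library (K: K700E; symbols: replicates; each panel has its own axis from 0). OGDH had 212 and 192 CPM in K700E and 132 and 123 CPM in WT at day 4, and DLD, DLAT, PDHA1, PDHB and PDHX were lower in all 4 libraries of day 8 than in all 4 of day 4, as were 18.1% of 14654 genes.

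At day 8, as labelled, 0 of the 7 genes passed (edgeR), with 0 at an unadjusted p under 0.05 and 0 by DESeq2, and 0 of 13990 genes passed in all, with 408 at an unadjusted p under 0.05 and 27 by DESeq2. DLST had 66.8 and 83.6 CPM in the libraries labelled K700E and 54.7 and 80.0 CPM in those labelled WT. Replicate 2, which had the high cryptic share, was the higher library within each label. None of the 7 genes had a K700E effect that differed between days with an adjusted p under 0.05 in the model of all 8 libraries (edgeR). No gene did in that fit, 0 of 14902, with 1371 at an unadjusted p under 0.05, so it does not set these 7 apart.

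The 7 genes were also compared between days, in a contrast added after the values were seen. Day 8 minus day 4 over both genotypes called 6 of the 7 genes (edgeR, 8 libraries), where 36.0% of 14902 genes were called, 18.1% higher and 18.0% lower at day 8. DLD fell by 0.995 on the log2 scale (SE 0.18, adjusted p = 0.00557), DLAT by 0.77 (SE 0.10, adjusted p = 0.00186), and PDHX by 0.66 (SE 0.11, adjusted p = 0.00444). These 3 were called without each of the 8 libraries in turn. PDHA1 fell by 0.73 (SE 0.19, adjusted p = 0.0208) and PDHB by 0.40 (SE 0.11, adjusted p = 0.0268), but these calls were less firm. Without WT replicate 2 of day 4 the adjusted p was 0.0901 for PDHA1 and 0.139 for PDHB. The call of PDHA1 was also lost without K700E replicate 2 of day 4 (0.0639) and without the library labelled K700E replicate 1 of day 8 (0.0583), and that of PDHB held only without either library labelled WT of day 8. OGDH rose by 0.46 (SE 0.11, adjusted p = 0.0166), with 196 to 265 CPM at day 8 and 123 to 212 CPM at day 4. That call was lost without a genotype term (adjusted p = 0.128), without either WT library of day 4 (0.0521 and 0.0773), without K700E replicate 2 of day 4 (0.0738) and without the library labelled K700E replicate 2 of day 8 (0.0574). Leaving out WT replicate 2 or K700E replicate 2 of day 4 also lowered the number called among all genes. The calls lost there are therefore not particular to these genes. DLST did not pass (log2 -0.20, SE 0.15, adjusted p = 0.332). Between the days 5 of the 7 genes did not overlap, all lower at day 8, beside 35.8% of 14654 genes, 17.7% higher and 18.1% lower.

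Other measures moved with the day. Epithelial markers summed to 1019 to 2608 CPM at day 8 and 487 to 986 CPM at day 4, while EPCAM alone had 6.90 to 32.2 CPM at day 8 and 74.3 to 111 CPM at day 4. The log2 ratio of a gene's first to its last introns, a measure of coverage along the transcript, had a median over 4526 other genes of -0.17 to -0.13 at day 8 and -0.21 to -0.20 at day 4. In DLAT it was 0.04 to 0.46 at day 8 and -0.62 to -0.49 at day 4, and in PDHB it was -1.005 to -0.21 at day 8 and -1.66 to -1.48 at day 4. Their part in the day differences was not tested. Day and any batch in which the days were handled cannot be told apart.

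The other genes of these complexes and of the citrate cycle showed 1 call at day 4 among the 38 tested of 40 listed. It was PDK1, a kinase that inhibits the pyruvate dehydrogenase complex, with 54.5 and 52.1 CPM in K700E and 123 and 115 CPM in WT. Its log2 change was -1.14 (SE 0.13, adjusted p = 0.0412), and the call was lost without WT replicate 1 (adjusted p = 0.441), without WT replicate 2 (0.398) and in the model of all 8 libraries (0.471). The list's median log2 change was -0.05, with 17 genes higher and 21 lower in sign, beside a median of 0.02 over all genes. The next largest changes did not pass. PDK4, another kinase of the complex, had 1.34 and 9.32 CPM in K700E and 0.510 and 1.34 CPM in WT (log2 2.53, SE 0.98, adjusted p = 0.222), and without K700E replicate 2 its log2 change was 0.53. PDK4 passed without K700E replicate 1 (log2 3.33, adjusted p = 7.12e-05), without a filter (0.00890) and with DESeq2 (0.0397). PDK3, also such a kinase, had 19.7 and 45.1 CPM in K700E and 59.1 and 64.2 CPM in WT (log2 -0.91, adjusted p = 0.250). Its log2 change was -0.44 without K700E replicate 1 (adjusted p = 0.138) and -1.64 without K700E replicate 2, where it passed (0.000105), as it did without a filter (0.0232). BCKDHA, a decarboxylase subunit of the branched-chain complex, had a log2 change of -1.04 (adjusted p = 0.231). AMT of the glycine cleavage system had 13 and 2 reads in K700E and 7 and 16 in WT (log2 -0.83, adjusted p = 0.687, and -2.48 to -0.13 with each library left out). Day 8 minus day 4 called 14 of the 38, 11 lower and 3 higher, or 36.8% beside the 36.0% of all genes. The list's median log2 change was -0.31, beside -0.0019 over all genes. LIAS, 1 of the 11 lower, was picked because it makes the lipoyl group that DLST and DLAT carry. It fell by 1.54 on the log2 scale (SE 0.18, adjusted p = 0.00134). The other genes of the list called between days, among them the 3 higher, are not named here.

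**Figure D5:**
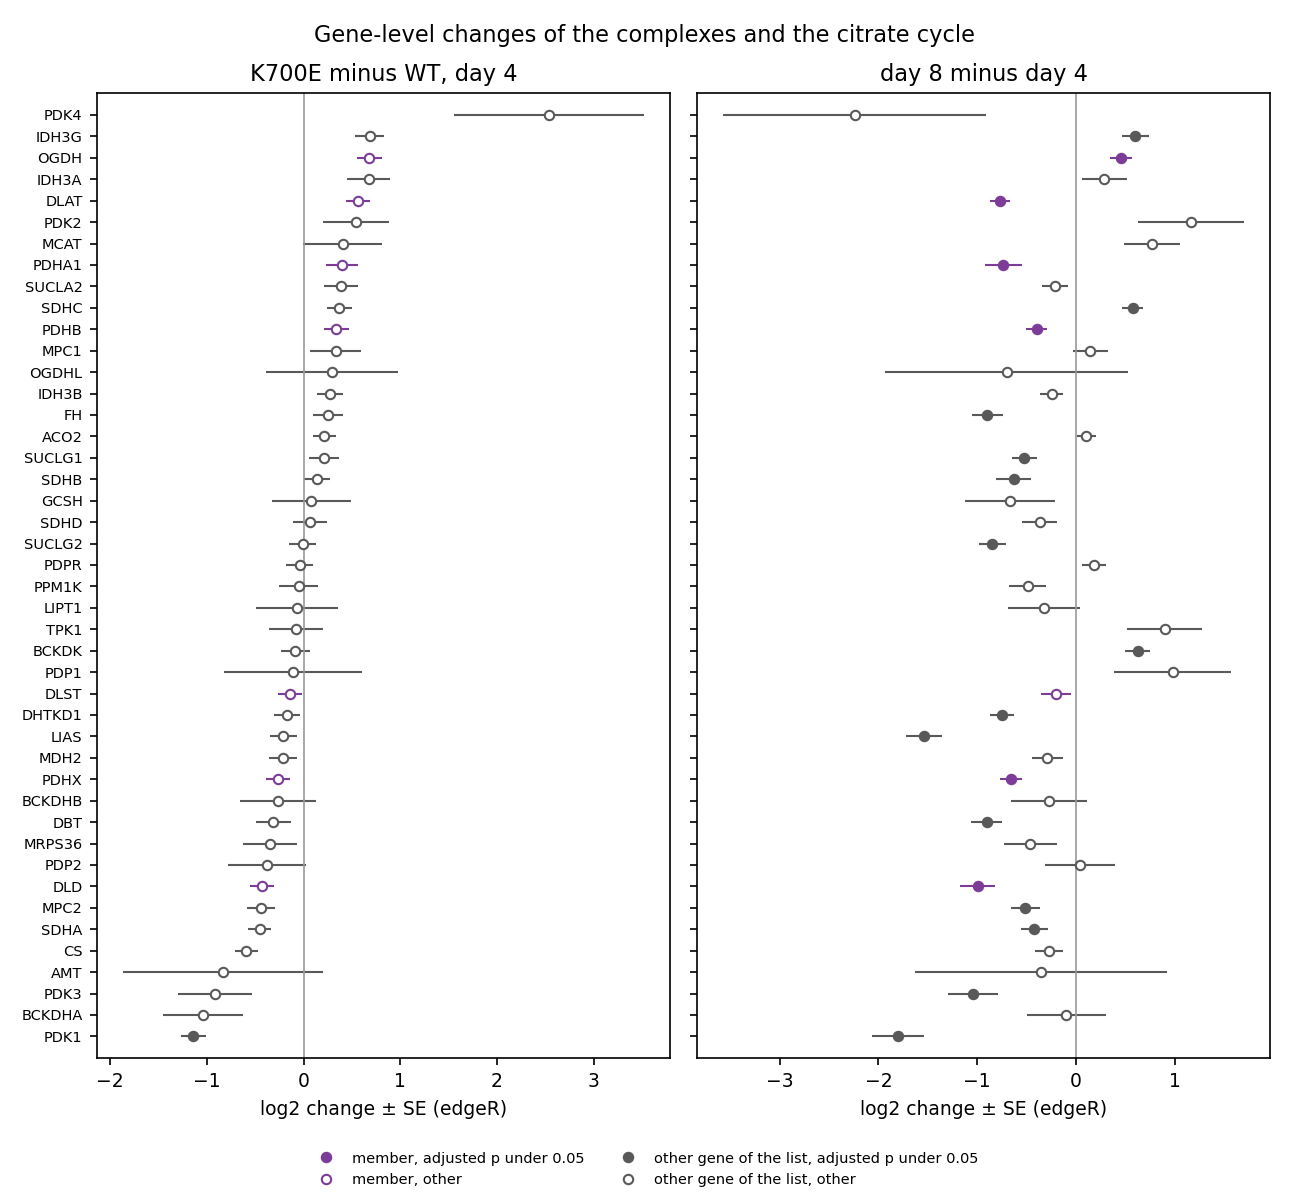
Log2 change ± SE (edgeR) of the 7 genes (purple) and of other tested genes of the list (grey), for K700E minus WT at day 4 (left) and day 8 minus day 4 over both genotypes (right); filled points have an adjusted p under 0.05. At day 4 PDK1 is the filled point, at -1.14, and on the right 6 of the 7 genes are filled, with DLD at -0.995 and OGDH at 0.46.

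The acceptors in other genes whose use was most like that of the DLST cryptic acceptor, among 6166 near-upstream acceptors compared over the 8 libraries, were those of FKBP15 (Pearson r = 0.998), GUK1 (0.997) and UBXN2A (0.997). All lay 13 to 17 nt upstream of the acceptor used most, and none was annotated. The FKBP15 acceptor took 11.5% and 8.84% in K700E at day 4 and had 0 reads in both WT libraries, of 151 and 229 at the donor. The UBXN2A acceptor took 29.7% and 26.4% in K700E and 0.489% and 0.694% in WT. All these coefficients rest on the same 8 libraries and describe an ordering in which 4 libraries were high and 4 low, at day 8 across the labels. The genes whose level was most like that of DLST, among 11826, were DXO (r = 0.977 on log2 CPM), EPS8L2 (0.972) and LINC00649 (0.956), all read at 0.944 to 12.1 CPM. Among the other 6 members r with DLST lay between -0.38 for OGDH and 0.70 for PDHA1.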

How the data were processed

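Total RNA of the 8 K562 libraries was prepared with a strand-specific dUTP protocol, per the labels' protocols. Reads were trimmed with cutadapt and aligned to hg38 with STAR 2.7.0e, per the submitters' processing notes and the file headers, with GENCODE release 29 junctions in the index and GENCODE release 22 added at mapping. The deposited values are read counts per splice junction, unique and multi-mapped apart. The unique counts were used, so only spliced genes are measured.

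Junctions were assigned to genes by GENCODE release 29 introns and sites, and the members' sequences were read from its transcripts. Reads in introns of 2 genes (3.98% to 4.39%) were left out of gene sums. A junction's share is its reads over all unique reads from its donor. CPM are counts scaled to TMM-adjusted gene sums. Acceptor use was tested with edgeR 4.0.16 diffSpliceDGE, for junctions with 5 reads in 2 libraries and donors with a mean of 20, and called at an adjusted p under 0.05 and 5 points of change. Junction and gene levels were tested with edgeR's quasi-likelihood test, adjusted by Benjamini-Hochberg over the whole table. Alternatives used limma 3.58.1 diffSplice and DESeq2 1.42.0. Tested on simulated day 4 counts, the steps recovered 95% of acceptors changed by 50 points and 43% of genes changed by a log2 of 1.

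The genes, lists and the choice to fit each day alone were made with earlier results of these data known. Named items are all members, the acceptor with the largest change in each, the 6 largest and any called genes of the list of 40 at day 4, and the 3 most similar acceptors and genes. LIAS was named outside this rule, for its function. LIPT2 and GLDC of the list had too few reads to test. One gene of the list is counted in the totals but not reported here.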

Additional observations from a re-analysis of the deposited data

How the results depend on the processing

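No alternative run reversed a named junction or gene at day 4. Over single junctions and genes at day 4 and member genes between days, 285 of 329 repeats kept their side of the threshold. In the rest 27 lost a call and 17 gained one. These repeats leave out the DLST cryptic share and canonical junction level, given below. They include results that no setting called, such as AMT and BCKDHA. The DLST cryptic share was called at day 4 in all fits but that of all 8 libraries (63.9 points, adjusted p = 1.00), and leaving out each library gave 58.5 to 69.3 points. With 10 reads in 3 libraries required it could not be tested, and 0 member acceptors were called, as in all 8 libraries (0), against 1 to 2 with each library left out. At day 8 as labelled the share differed by -27.8 to 28.8 points with each library left out. The canonical junction level was -2.06 on the log2 scale in all 8 libraries and not called, and -2.36 to -1.78 with each library left out. Member genes called at day 4 numbered 3 with DESeq2, 2 without a filter and 0 to 3 with each library left out, against 0. Pathway genes called at day 4 numbered 6 with DESeq2, 7 without a filter, 0 in all 8 libraries and 0 to 8 with each library left out, against 1. Between days, member calls numbered 3 to 6 and pathway calls 8 to 19 with each library left out, against 6 and 14. The cause of these shifts was not tested, except that 1 library less leaves 1 library in a group, which is then assumed to vary like the other. Over all tested features at day 4, acceptors called numbered 326, against 295 with limma, 287 without a filter, 92 with the stricter filter, 0 in all 8 libraries and 8 to 110 with each library left out, and genes called numbered 74, against 1634 with DESeq2, 1567 without a filter, 0 in all 8 libraries and 0 to 2536 with each library left out. Replicates with the same number deviated together with a correlation of 0.101 at day 4 and 0.271 at day 8, in 2 pairs a day with no shared source in the labels. With the replicate number as a block the DLST change kept its call (63.9 points, adjusted p = 2.84e-05), 2 member acceptors and 0 member genes were called at day 4, and genes called numbered 126 and acceptors 247 in all.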
